A study of Mus musculus with 2 samples.

Results

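The genes that make cholesterol and move it between cells were followed in the forebrain of mouse embryos, with 31 genes listed by name for their place in the pathway. All 31 were found among the 43346 genes of the deposited tables. Total RNA longer than 200 nt, 10 ng per library, was sequenced from forebrain of healthy B6NCrl embryos at 16.5 days of gestation (E16.5), with ERCC spike-in RNAs added. The series holds 1 group with 2 biological replicates, called replicate 1 and replicate 2, each a separate pool of male and female embryos, and the pool of replicate 2 came from 41 embryos. No treatment, mutation or second age is part of the design, so the values describe the normal E16.5 forebrain and the difference between its pools, and no p-value was computed.

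Brain cholesterol is made almost wholly inside the brain, because lipoproteins of the blood do not cross the blood-brain barrier. Acetyl units are joined into mevalonate, turned into isoprenoids, folded through squalene into lanosterol, and then trimmed to cholesterol in the endoplasmic reticulum. The SREBP transcription factors, held in that membrane by SCAP and INSIG proteins while sterols are plentiful, switch the pathway on when sterols fall. Cells pass cholesterol to each other on particles that carry apolipoprotein E, and neurons clear an excess by turning it into 24-hydroxycholesterol.

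Short motifs of factors known to act on this pathway, SREBP, NF-Y and Sp1, were first looked for in the promoters, in RefSeq windows of 300 bases (250 before and 50 after each start, GRCm38.p6). Windows were at hand for 26 of the 31 genes, 36 windows in all. None was at hand for Fdps, Fdft1, Sqle, Abcg1 and Npc1. The sterol regulatory element, searched as TCACNCCAC on both strands, stood in 1 of the 36 windows, that of Hmgcs1, and in 1.24% of all 32851 windows. The E-box TCACGTGA was in 0 of the 36 and in 0.974% of all. In windows of protein-coding genes that reached 1 TPM in both libraries, the sterol regulatory element stood in 1.11% and the E-box in 1.79%. At such rates 36 windows are too few to tell 0 or 1 match from the background. The NF-Y box CCAAT, which reads ATTGG on the other strand, was in 22 of the 36 windows (61.1%), beside 37.4% of all windows and 37.9% of the windows of protein-coding genes that reached 1 TPM in both libraries. The Sp1 box GGGCGG, or CCGCCC on the other strand, was in 28 (77.8%), beside 35.7% of all windows and 62.6% of those expressed ones. Windows of the same gene can share bases, and a match is a stretch of letters, not a shown binding site. The Hmgcs1 window is printed because it held the only match to TCACNCCAC, in capitals at bases -137 to -129 from the RefSeq start (position 0). Its 4 NF-Y boxes are also in capitals and its 3 Sp1 boxes are left in lower case. Other spellings of the sterol regulatory element were not searched, so windows without this match may still hold one. The Hmgcs1 window spans chr13:119690101-119690400 on the + strand.
Hmgcs1: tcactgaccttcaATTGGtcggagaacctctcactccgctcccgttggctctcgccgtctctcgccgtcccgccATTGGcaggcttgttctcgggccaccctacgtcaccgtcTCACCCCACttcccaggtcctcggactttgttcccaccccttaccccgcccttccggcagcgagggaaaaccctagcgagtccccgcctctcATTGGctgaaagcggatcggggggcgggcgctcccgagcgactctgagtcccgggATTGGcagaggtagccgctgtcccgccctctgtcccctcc

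Srebf1 and Insig2 each have 3 RefSeq starts, and the deposited transcript values separate them, so windows of these starts are printed for the comparison of start use described further on. Capitals mark NF-Y boxes (CCAAT or ATTGG) and Sp1 boxes (GGGCGG or CCGCCC), and no 2 marked matches overlap. Numbered from upstream to downstream on the - strand, the Srebf1 windows span chr11:60222532-60222831, chr11:60220578-60220877 and chr11:60210422-60210721. The Insig2 windows 1 and 2 span chr1:121332540-121332839 and chr1:121327975-121328274, also on the - strand. In Srebf1 the first window held an NF-Y box and no Sp1 box, the second held 3 Sp1 boxes and no NF-Y box, and the third held both kinds. In Insig2 the first window held 3 NF-Y boxes and no Sp1 box, and the second held a single Sp1 box. The third Insig2 window lies directly downstream of the second, also holds a single Sp1 box and is not printed.
Srebf1 start 1: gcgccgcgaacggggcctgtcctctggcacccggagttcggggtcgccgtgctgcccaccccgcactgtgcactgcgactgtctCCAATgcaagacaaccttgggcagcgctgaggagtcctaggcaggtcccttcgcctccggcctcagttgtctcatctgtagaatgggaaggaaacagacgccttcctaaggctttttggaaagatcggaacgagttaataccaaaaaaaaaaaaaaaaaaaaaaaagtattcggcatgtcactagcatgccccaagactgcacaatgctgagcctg
Srebf1 start 2: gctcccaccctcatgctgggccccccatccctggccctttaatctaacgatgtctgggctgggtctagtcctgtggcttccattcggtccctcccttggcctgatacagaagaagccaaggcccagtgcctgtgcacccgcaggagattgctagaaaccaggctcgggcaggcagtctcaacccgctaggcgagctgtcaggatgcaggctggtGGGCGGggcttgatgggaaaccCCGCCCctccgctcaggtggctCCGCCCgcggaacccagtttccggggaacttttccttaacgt
Srebf1 start 3: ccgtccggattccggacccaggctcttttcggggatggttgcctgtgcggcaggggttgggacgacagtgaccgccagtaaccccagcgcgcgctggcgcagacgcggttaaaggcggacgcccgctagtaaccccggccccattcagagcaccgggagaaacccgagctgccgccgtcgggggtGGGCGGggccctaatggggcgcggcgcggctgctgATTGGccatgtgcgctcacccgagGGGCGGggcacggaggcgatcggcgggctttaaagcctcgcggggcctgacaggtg
Insig2 start 1: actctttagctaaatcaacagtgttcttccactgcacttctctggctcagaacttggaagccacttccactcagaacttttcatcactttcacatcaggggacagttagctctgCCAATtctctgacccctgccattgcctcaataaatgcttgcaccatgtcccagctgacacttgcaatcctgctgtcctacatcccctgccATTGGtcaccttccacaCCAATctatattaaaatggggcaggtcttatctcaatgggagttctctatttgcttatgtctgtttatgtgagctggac
Insig2 start 2: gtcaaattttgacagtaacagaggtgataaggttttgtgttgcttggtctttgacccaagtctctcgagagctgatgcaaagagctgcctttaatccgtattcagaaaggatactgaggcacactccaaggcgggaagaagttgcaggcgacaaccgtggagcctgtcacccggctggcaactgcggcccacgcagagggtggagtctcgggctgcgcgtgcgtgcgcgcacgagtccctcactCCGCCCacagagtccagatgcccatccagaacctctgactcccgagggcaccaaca

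All 31 genes reached 1 TPM (a level per length of transcript, scaled to a fixed sum per library) in both libraries, and 29 reached 10 TPM in both. Of the protein-coding genes, 60.7% reached the first mark and 40.9% the second. The 18 genes of synthesis had a median level of 67.4 ± 4.90 TPM (SD, n = 2, as for every ± here). The 5 genes of sterol sensing had a median of 39.2 ± 1.22 TPM and the 8 genes of uptake, transfer, efflux, storage and removal one of 22.6 ± 0.106 TPM. The median over all protein-coding genes was 5.05 TPM, and over those at 1 TPM or more it was 21.9 TPM. Of the 31 genes, 25 had a mean above that second median, among them 16 of the 18 synthesis genes. In a bulk sample, fewer cells of a type and less RNA per cell cannot be told apart.

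**Figure D1:**
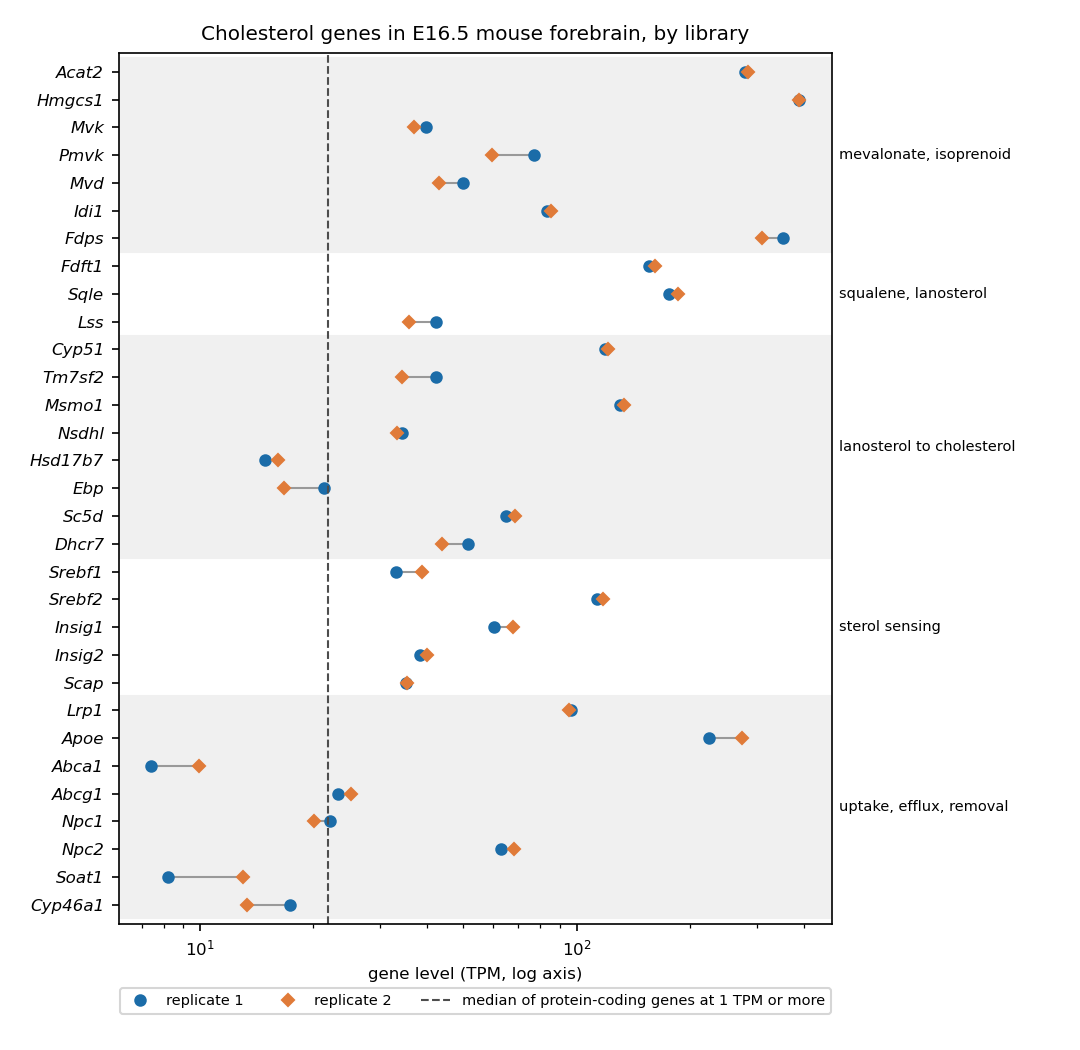
Level of each of the 31 genes in replicate 1 (circles) and replicate 2 (diamonds), in TPM on a log axis, in pathway order, with a dashed line at the median of protein-coding genes at 1 TPM or more (21.9 TPM). Hmgcs1, Fdps, Acat2 and Apoe stand highest, and Abca1 and Soat1 lowest.

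The first enzymes of the pathway were abundant. Hmgcs1, the cytosolic HMG-CoA synthase (ENSMUSG00000093930, chromosome 13, 119690379 to 119708260), had 388 TPM in replicate 1 against 389 TPM in replicate 2 and ranked 301st among the protein-coding genes. Acat2, the cytosolic thiolase that supplies acetoacetyl-CoA (ENSMUSG00000023832, chromosome 17), had 279 TPM in replicate 1 against 285 TPM in replicate 2. In both libraries Hmgcs1 stood above Acat2, by a log2 TPM ratio of 0.46 ± 0.02. The 3 enzymes that phosphorylate and decarboxylate mevalonate were far lower. Mvk, mevalonate kinase, had 39.7 TPM in replicate 1 against 37.1 TPM in replicate 2, and Hmgcs1 exceeded it by a log2 TPM ratio of 3.34 ± 0.07. Pmvk, phosphomevalonate kinase, had 77.02 TPM in replicate 1 against 59.5 TPM in replicate 2. Mvd, the decarboxylase that forms isopentenyl diphosphate, had 49.8 TPM in replicate 1 against 43.1 TPM in replicate 2. Idi1, the isomerase that follows, was even between the pools at 83.4 TPM in replicate 1 against 85.4 TPM in replicate 2. Levels were high again at Fdps, the farnesyl diphosphate synthase at the branch towards sterols, dolichol and prenylated proteins, with 352 TPM in replicate 1 against 309 TPM in replicate 2. The levels of these 7 genes spanned 38.4 ± 1.84 TPM for Mvk to 388 ± 1.05 TPM for Hmgcs1, with the high levels at both ends of the stretch.

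Squalene formation kept high levels, and lanosterol formation did not. Fdft1, squalene synthase and the first step given over to sterols, had 156 TPM in replicate 1 against 161 TPM in replicate 2. Its level was below that of Fdps in both libraries (log2 TPM ratio of Fdft1 over Fdps -1.06 ± 0.16). Sqle, the squalene epoxidase that is a rate-limiting step of the pathway, had 176 TPM in replicate 1 against 185 TPM in replicate 2. Sqle exceeded Fdft1 by a small and steady margin, a log2 TPM ratio of 0.19 ± 0.02. Lss, lanosterol synthase, had 42.4 TPM in replicate 1 against 35.95 TPM in replicate 2, and Sqle exceeded it by a log2 TPM ratio of 2.21 ± 0.22. Counting protein-coding transcripts alone, Lss had 20.0 ± 0.290 TPM and the gap to Sqle widened to 3.15 ± 0.08 on the log2 scale.

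The 8 later enzymes ran from 15.5 ± 0.926 TPM for Hsd17b7 to 132 ± 2.36 TPM for Msmo1 on whole genes. On protein-coding transcripts alone Hsd17b7 had 9.34 ± 0.205 TPM and Msmo1 83.8 ± 6.82 TPM, and Cyp51 was then the highest of the 8 at 117 ± 2.10 TPM. Msmo1, the C4-methylsterol oxidase, had 130 TPM in replicate 1 against 133 TPM in replicate 2. Cyp51, the lanosterol 14-demethylase, had 119 TPM in replicate 1 against 121 TPM in replicate 2. These 2 demethylating enzymes were the highest of the 8 on either measure. Sc5d, the lathosterol desaturase, had 64.7 TPM in replicate 1 against 68.4 TPM in replicate 2. Dhcr7, the reductase whose loss causes Smith-Lemli-Opitz syndrome in humans, had 51.4 TPM in replicate 1 against 44.0 TPM in replicate 2. On whole genes Sc5d and Dhcr7 did not differ beyond the spread between pools (log2 TPM ratio 0.48 ± 0.21), whereas on protein-coding transcripts they did (0.76 ± 0.15). Tm7sf2, a C14-sterol reductase, had 42.2 TPM in replicate 1 against 34.5 TPM in replicate 2. Nsdhl, a dehydrogenase of C4 demethylation on the X chromosome, had 34.3 TPM in replicate 1 against 33.3 TPM in replicate 2. Ebp, the sterol isomerase and also X-linked, had 21.3 TPM in replicate 1 against 16.7 TPM in replicate 2. Hsd17b7, the ketoreductase of C4 demethylation, was the lowest of the synthesis genes, at 14.8 TPM in replicate 1 against 16.2 TPM in replicate 2. Between the highest and the lowest synthesis gene lay a 25.1-fold range of mean TPM, and a 41.6-fold range on protein-coding transcripts.

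Of the 2 SREBP genes, the one that chiefly drives cholesterol synthesis was the more abundant. Srebf2 had 113 TPM in replicate 1 against 118 TPM in replicate 2. Srebf1, better known for control of fatty acid genes, had 33.2 TPM in replicate 1 against 38.8 TPM in replicate 2. The log2 TPM ratio of Srebf2 over Srebf1 was 1.68 ± 0.12, a 3.21-fold difference, and 2.39 ± 0.08 over protein-coding transcripts alone. Insig1, the retention protein that is itself an SREBP target, had 60.3 TPM in replicate 1 against 67.8 TPM in replicate 2. Insig2, its paralogue, had 38.3 TPM in replicate 1 against 40.0 TPM in replicate 2, and Insig1 exceeded it by a log2 TPM ratio of 0.71 ± 0.08. Scap, the escort of SREBP to the Golgi, was even at 35.2 TPM in replicate 1 against 35.5 TPM in replicate 2, below Insig1 in both libraries (log2 TPM ratio -0.85 ± 0.11).

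Apoe led the genes of handling. Apoe, the main apolipoprotein of the brain (ENSMUSG00000002985, chromosome 7, 19696109 to 19699188, - strand), had 224 TPM in replicate 1 against 274 TPM in replicate 2. It stood 4.00-fold above Clu, another apolipoprotein of the brain that is not among the 31 (log2 TPM ratio 2.00 ± 0.05). Lrp1, a large receptor that takes up ApoE particles, had 96.7 TPM in replicate 1 against 95.4 TPM in replicate 2. Abca1, the exporter that loads lipid onto ApoE, had 7.42 TPM in replicate 1 against 9.93 TPM in replicate 2, the lowest mean of the 31. Apoe stood above Abca1 by a log2 TPM ratio of 4.83 ± 0.09. Abcg1, an exporter to already formed particles, had 23.2 TPM in replicate 1 against 25.1 TPM in replicate 2, above Abca1 in both (log2 TPM ratio of Abca1 over Abcg1 -1.48 ± 0.22). Npc2, the soluble lysosomal protein that hands cholesterol to the membrane protein NPC1, had 63.0 TPM in replicate 1 against 68.3 TPM in replicate 2. Npc1 had 22.2 TPM in replicate 1 against 20.0 TPM in replicate 2, and Npc2 exceeded it by a log2 TPM ratio of 1.63 ± 0.19. Soat1, which esterifies cholesterol for storage, had 8.22 TPM in replicate 1 against 13.0 TPM in replicate 2. Cyp46a1, the neuronal cholesterol 24-hydroxylase, had 17.3 TPM in replicate 1 against 13.4 TPM in replicate 2. The order of Soat1 and Cyp46a1 could not be told, at a log2 TPM ratio of -0.55 ± 0.72. Of the 20 pairs of genes compared here and among related genes, 17 differed in the same direction in both libraries by a mean of more than 3 SD, and 3 did not. On protein-coding transcripts 19 did, and Soat1 with Cyp46a1 was the 1 pair that did not.

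Part of several gene levels was assigned to transcripts that GENCODE does not annotate as protein-coding. How often this holds over all protein-coding genes is not given here, so the next 2 counts have no background. In 21 of the 31 genes, protein-coding transcripts held 95% or more of the level in both libraries. In 10 genes the share was under 80% in at least 1 library, namely Lss, Tm7sf2, Msmo1, Hsd17b7, Ebp, Dhcr7, Srebf1, Lrp1, Npc1 and Soat1. The lowest was Lrp1, at 36.8% in replicate 1 and 39.1% in replicate 2. Its leading entry by TPM was Lrp1-208, a retained-intron transcript of 763 bases with 33.1% of TPM in replicate 1 and 32.8% in replicate 2. By expected counts the same entry held 4.03% in replicate 1 and 3.93% in replicate 2, whereas the full-length coding transcript Lrp1-201 held 78.9% in replicate 1 and 80.9% in replicate 2. Other shares also differed by counts. The coding transcript Npc1-201 held 84.3% of counts in replicate 1 and 90.9% in replicate 2, against 63.7% and 68.6% of TPM. Hsd17b7-201 held 88.2% and 87.3% of counts, against 56.6% and 52.6% of TPM. Over protein-coding transcripts alone, Lrp1 had 36.4 ± 1.21 TPM in place of 96.0 ± 0.898 TPM. Lrp1 against Lrp8, the neuronal reelin and ApoE receptor, then turned round, with a log2 TPM ratio of -0.11 ± 0.03 on coding transcripts and 0.69 ± 0.01 on whole genes.

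**Figure D2:**
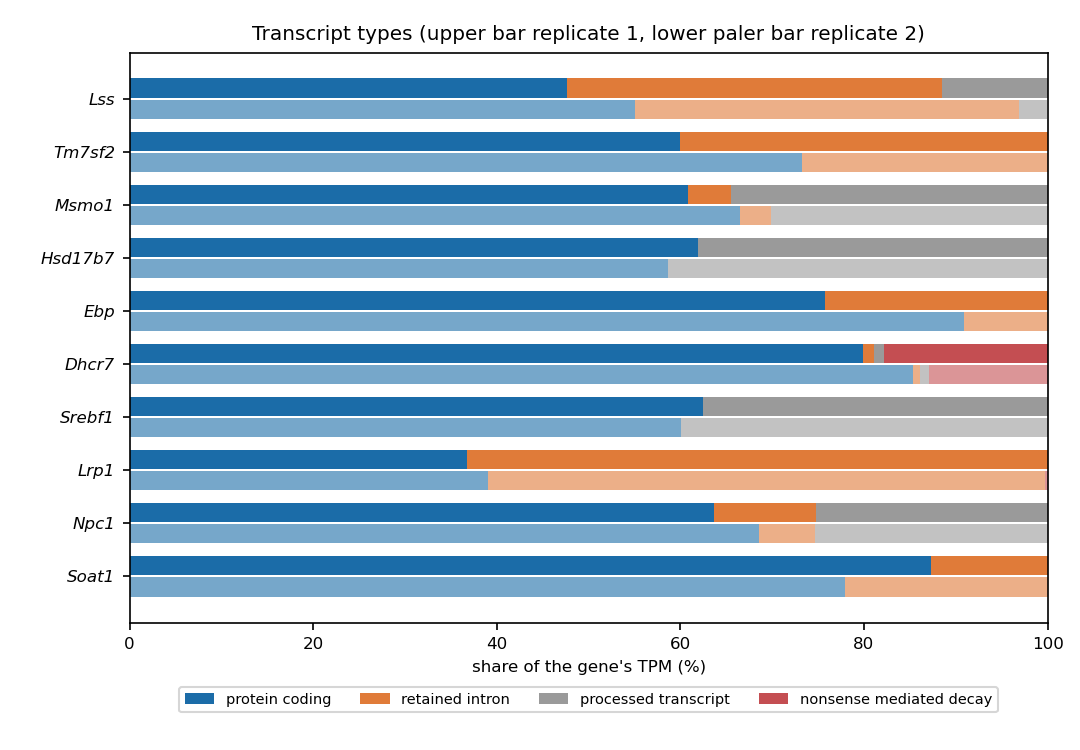
Share of each gene's TPM by annotated transcript type for the 10 genes with under 80% protein-coding TPM in a library, as stacked bars from 0 to 100%, with replicate 1 above replicate 2. Lrp1 and Lss carry the largest retained-intron shares, and Hsd17b7, Srebf1 and Msmo1 the largest shares of processed transcripts.

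Lss followed with a coding share of 47.6% in replicate 1 and 55.0% in replicate 2, the rest being mostly retained introns. Msmo1 had 60.8% in replicate 1 and 66.5% in replicate 2, and its processed transcript Msmo1-206 held most of the remainder. Ebp and Tm7sf2 had lower coding shares in replicate 1 than in replicate 2. For Ebp these were 75.7% in replicate 1 and 90.9% in replicate 2. For Tm7sf2 they were 60.0% in replicate 1 and 73.2% in replicate 2. On coding transcripts alone both genes varied little between the pools, at 15.6 ± 0.672 TPM for Ebp and 25.3 ± 0.0424 TPM for Tm7sf2. The leading transcript was the same in both libraries for all 31 genes and protein-coding for 30, Lrp1 being the exception. It held 90% or more in both libraries for 18 genes, 9 of which have 1 listed transcript only, and under 50% in at least 1 library for 6 genes.

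Start use could be read for Srebf1 and Insig2 from the transcripts that begin near each RefSeq start, within 150 bases. The coding transcript Srebf1-201, from start 2, held 35.3% of the Srebf1 TPM in replicate 1 and 33.4% in replicate 2, with 923 and 858 expected counts. Transcripts from start 3 held 21.04% in replicate 1 and 20.2% in replicate 2. Start 1 was read by the short processed transcript Srebf1-204 with 17.2% in replicate 1 and 26.4% in replicate 2, which rested on 28.7 and 43.3 expected counts. Among the 3 starts, start 2 had the most counts and the highest TPM share in both libraries. Start 1 had the fewest counts, but Srebf1-204 is 367 bases long, against 4299 for Srebf1-201 and 3177 for Srebf1-207 of start 3. By TPM start 1 lay below start 3 in replicate 1 and above it in replicate 2. A link between the motifs and start use was not tested. For Insig2, the 2 transcripts of start 1 were estimated at 0 counts in either library, while the deposited posterior means gave them 3.15% of the gene's level in replicate 1 and 5.0% in replicate 2. Insig2-201, from start 2, held 55.5% in replicate 1 and 54.1% in replicate 2, and transcripts from start 3 held 40.9% in replicate 1 and 45.9% in replicate 2. By expected counts the gap was wider, with 1036 and 886 for start 2 against 310 and 233 for start 3, whose transcripts are all shorter than Insig2-201. For Apoe, start 1 (position 19699188) was given 16.4% in replicate 1 and 14.6% in replicate 2. Apoe-209 gave most of the remaining TPM, with 81.3 ± 1.82%. It begins at position 19699008, just past the 150-base limit of start 1, so the share given to start 1 depends on that limit. These shares are estimates from reads that transcripts of a gene have in common.

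**Figure D3:**
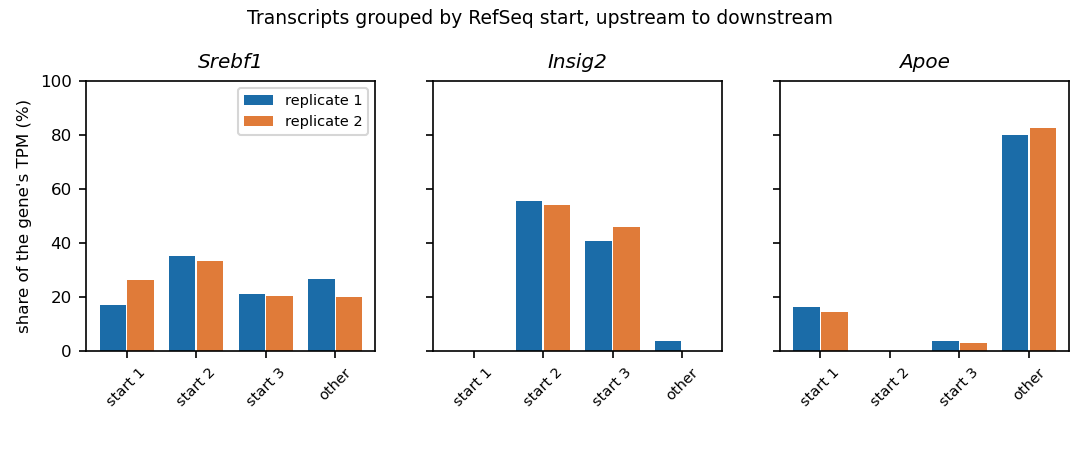
Share of each gene's TPM by RefSeq start, numbered from upstream to downstream, with transcripts from elsewhere as other; bars start at 0, replicate 1 beside replicate 2. Insig2 start 1 is at 0 in both libraries by the main estimate and start 2 near 55%, and the Srebf1 share is spread over all 3 starts.

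The pools were then set against each other with scaled counts, as log2 ratios of replicate 1 over replicate 2, each with its 95% counting interval. Of the 31 genes, 0 passed 2-fold, against 1.38% of the 13929 genes compared, and 0 passed 1.5-fold, against 6.59%. The ratio furthest from 1 in either direction was 1.32-fold. For 7 genes the interval lay above equality, 22.6% of the 31 beside 24.1% of all genes compared, and for 7 it lay below, also 22.6%, beside 26.5%. These shares are near the background. The intervals cover counting error only, and over all genes the libraries differed by far more than counting error, and the chi-square of the counts, divided by its degrees of freedom, was 18.8. With 1 library a side, the differences have no replicate check.

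**Figure D4:**
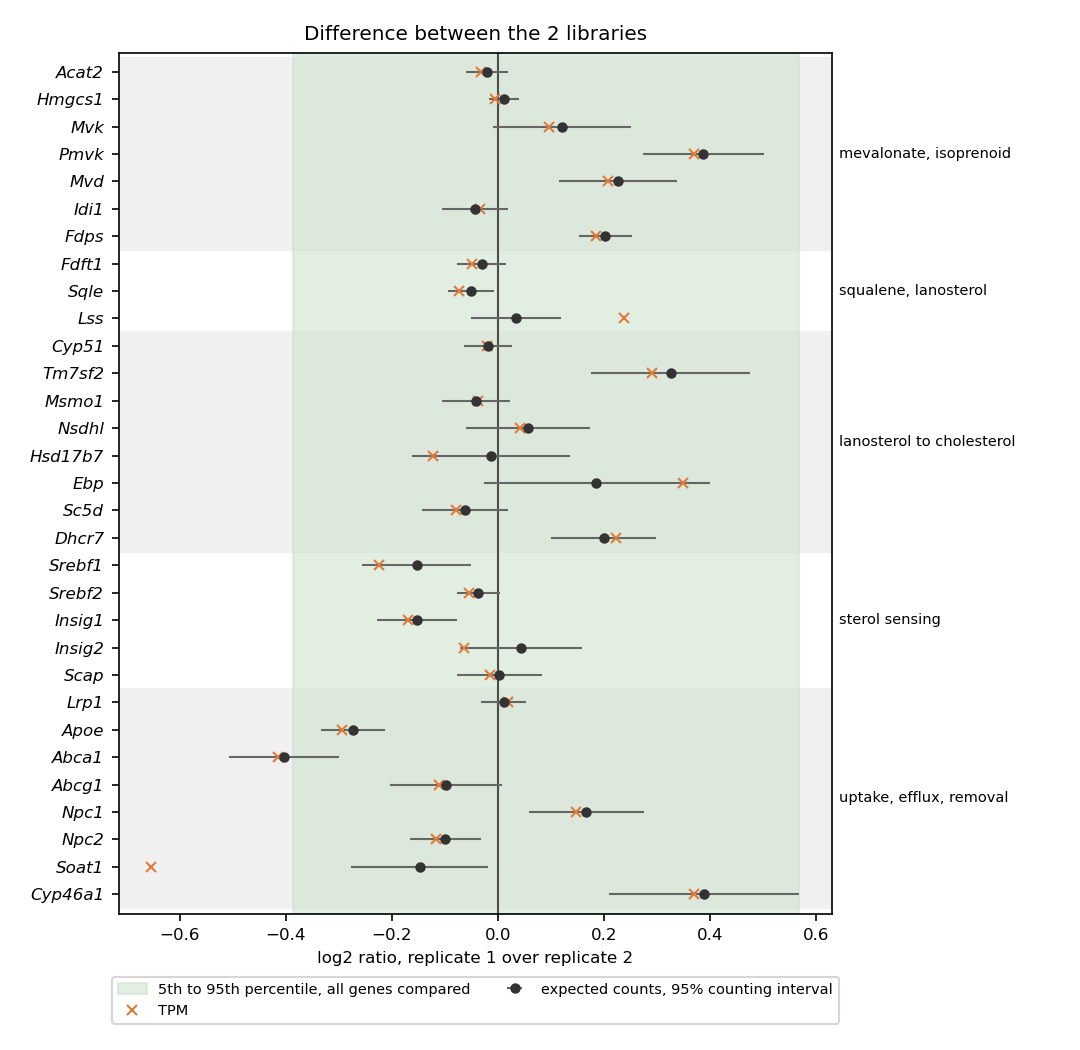
Log2 ratio of replicate 1 over replicate 2 for each of the 31 genes, from scaled expected counts (dots, with the 95% counting interval) and from TPM (crosses), over a band from the 5th to the 95th percentile of all genes compared. All genes but Abca1 lie inside the band by counts, and Soat1 has the widest gap between its dot and its cross.

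Among the 18 synthesis genes, 5 had an interval above equality (Pmvk, Mvd, Fdps, Tm7sf2 and Dhcr7) and 1 below it (Sqle). Over all genes compared, 24.1% had an interval above equality and 26.5% one below it. Pmvk was furthest, with 1580 expected counts in replicate 1 against 1026 in replicate 2, giving a log2 ratio of 0.39 (interval 0.27 to 0.50). Tm7sf2 had a log2 ratio of 0.33 (0.18 to 0.48), and Fdps, the most counted of the 5, one of 0.20 (0.15 to 0.25). Mvd had 0.23 (0.11 to 0.34) and Dhcr7 0.20 (0.10 to 0.30). On protein-coding transcripts alone Tm7sf2 was even between the pools, at 25.3 TPM in replicate 1 against 25.2 TPM in replicate 2. For Sqle the log2 ratio was -0.05 (-0.09 to -0.01), and scaling on total counts gave -0.03 with an interval that spanned equality. The median log2 ratio over the 18 was 0.02, where that of all genes compared was -0.01 with a 5th to 95th percentile of -0.39 to 0.57. Of the sensing genes, Srebf1 and Insig1 lay below equality, both with a log2 ratio of -0.15, and Srebf2, Insig2 and Scap had intervals that spanned it.

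The genes of handling varied most. Abca1 had 1416 expected counts in replicate 1 against 1591 in replicate 2, giving a log2 ratio of -0.40 (-0.51 to -0.30), the only one of the 31 outside that percentile band. Apoe had a log2 ratio of -0.27 (-0.33 to -0.21) on 4368 and 4484 expected counts. Npc2 and Soat1 also lay below equality, at -0.10 (-0.17 to -0.03) and -0.15 (-0.28 to -0.02), and the interval of Soat1 spanned equality on total counts (-0.12). Cyp46a1 lay above it, with 655 expected counts in replicate 1 against 425 in replicate 2, giving a log2 ratio of 0.39 (0.21 to 0.57), and so did Npc1 at 0.17 (0.06 to 0.28). On protein-coding transcripts alone Npc1 had 14.1 TPM in replicate 1 against 13.7 TPM in replicate 2. For Soat1 the TPM gave a log2 ratio of -0.65 in place of -0.15. Its estimated effective length was 6608 bases in replicate 1 and 4688 bases in replicate 2, since Soat1-207 held 76.96% of its TPM in replicate 1 and 48.2% in replicate 2. Lss (0.24 by TPM, 0.03 by counts) and Ebp (0.35 by TPM, 0.19 by counts) showed smaller gaps of the same kind. Scaling on the spike-ins instead of on the genes moved all genes by -0.55 on the log2 scale. Under it 12 of the 31 passed 1.5-fold, but the shift alone takes a gene at equality close to that bar. The share of all genes past 1.5-fold under this scaling is not given here, so the 12 have no background. Pmvk, Mvd, Fdps, Tm7sf2, Dhcr7 and Npc1 turned below equality under it. Cyp46a1 had -0.16 with an interval that spanned equality, so none of the 7 genes kept its call above equality, and directions hold relative to the other genes of a library only.

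Markers of cell types also moved between the pools. Of all genes compared, 48.0% had a log2 ratio above 0. All 7 compared markers of radial glia, the stem cells that also express Apoe, had a log2 ratio below 0, with a median of -0.30 and summed levels of 1825 TPM in replicate 1 against 2299 TPM in replicate 2. Of 7 compared astrocyte markers 6 were below 0 (median -0.31, summed 258 and 335 TPM), and all 8 of microglia (median -0.38, summed 84.2 and 112 TPM). The 8 markers of meningeal fibroblasts were all below 0, with a median of -0.87 and sums of 216 TPM in replicate 1 against 485 TPM in replicate 2. The 8 of endothelial cells had a median of -0.23, the 7 of red blood cells -0.34 and the 8 of dividing cells -0.26, all below 0. In the other direction, the 6 compared hypothalamic markers were all above 0, with a median of 2.20 and sums of 47.1 TPM in replicate 1 against 12.9 TPM in replicate 2. Of 8 oligodendrocyte lineage markers 5 were above 0, with a median of 0.31 and sums of 99.7 TPM in replicate 1 against 85.0 TPM in replicate 2. Neuron markers were split 4 and 4, with a median of -0.01 and the highest sums of the neural lists, 4164 TPM in replicate 1 against 3913 TPM in replicate 2, and choroid plexus markers split 3 and 3. Hcrt was the only marker listed at 0, in replicate 2. The part of these cell types in the ratios of Apoe, Abca1, Cyp46a1 and the synthesis genes was not tested.

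**Figure D5:**
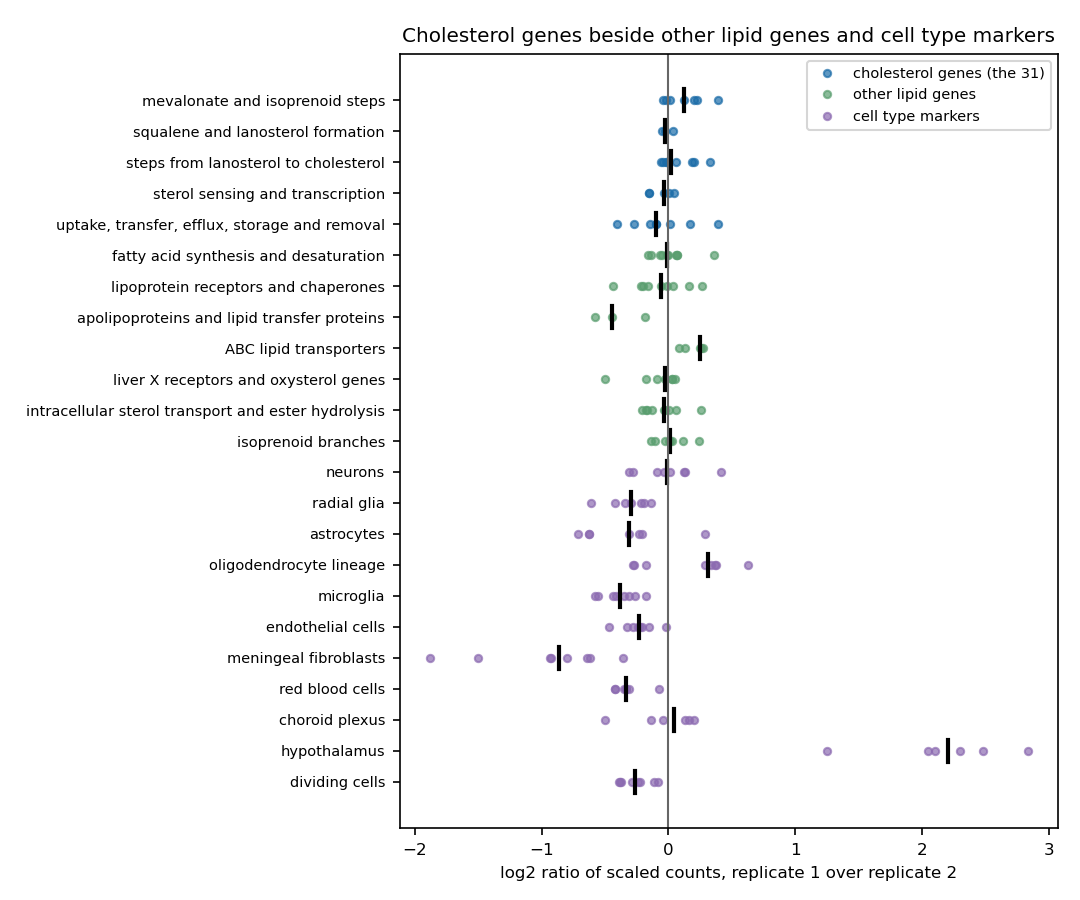
Log2 ratio of replicate 1 over replicate 2 for each gene compared, by list, with a black line at the list's median. The cholesterol genes lie close to 0, between -0.40 and 0.39, while meningeal fibroblast markers lie below 0 and hypothalamic markers above it.

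Beside the 31, 57 other lipid genes were read in 7 lists, of which 51 reached 1 TPM in both libraries and 51 were counted deeply enough to compare. None of these passed 1.5-fold, against 6.59% of all genes compared. An interval above equality was found for 10 of them (19.6%, beside 24.1% of all genes) and one below for 18 (35.3%, beside 26.5%). Among the 10 genes of fatty acid synthesis, the other branch of SREBP control, Scd2, a stearoyl-CoA desaturase, was highest at 255 ± 19.6 TPM. Acly, which makes cytosolic acetyl-CoA, followed at 206 ± 6.27 TPM, and Scd1 was lowest at 3.38 ± 0.573 TPM. Scd2 exceeded Scd1 in both libraries by a log2 TPM ratio of 6.21 ± 0.35. Of the lipoprotein receptors and chaperones, Lrpap1, the chaperone of LRP1, had 147 ± 1.46 TPM and Lrp8 59.4 TPM in both libraries, while Lrp2 was lowest at 0.235 ± 0.0212 TPM.

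In the apolipoprotein list Apod had 66.2 ± 19.4 TPM, of which protein-coding transcripts held 10.8 ± 4.00 TPM. Clu had 62.0 ± 6.69 TPM and Lcat, which esterifies cholesterol on particles, 0.635 ± 0.106 TPM. All 3 compared genes of that list lay below equality between the pools, beside 26.5% of all genes compared. Their median log2 ratio was -0.45, on the same side as Apoe and Abca1. The 5 other ABC lipid transporters all had a log2 ratio above 0 (median 0.25), beside 48.0% of all genes compared. For 4 of them the interval lay above equality, beside 24.1% of all genes compared. The list was led in level by Abca3 at 21.6 ± 3.18 TPM and Abcg4 at 16.3 ± 2.72 TPM, with Abca7 lowest at 3.61 ± 0.424 TPM. Abcg4 was below the related exporter Abcg1 in both libraries on whole genes, but by a mean of less than 3 SD (log2 TPM ratio -0.58 ± 0.32). On protein-coding transcripts the mean was more than 3 SD (-1.18 ± 0.25).

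Nr1h2, the liver X receptor that senses oxysterols in most tissues, had 62.5 ± 6.16 TPM and exceeded its relative Nr1h3 by a log2 TPM ratio of 4.82 ± 0.22. Its partner Rxrb had 48.3 ± 1.21 TPM, and Ch25h, the cholesterol 25-hydroxylase, was lowest of that list at 0.380 ± 0.113 TPM. Gramd1a, which moves cholesterol from the plasma membrane to the endoplasmic reticulum, had 189 ± 1.87 TPM, with a coding share of 42.8% in replicate 1 and 47.6% in replicate 2. Scp2, a sterol carrier protein, had 178 ± 12.4 TPM, and Gramd1c was lowest in that list at 0.695 ± 0.191 TPM. Stard3, a late endosomal sterol transfer protein, exceeded the soluble Stard4 by a log2 TPM ratio of 1.63 ± 0.04. In the isoprenoid branches that leave the pathway at or before farnesyl diphosphate, Ggps1, which makes geranylgeranyl diphosphate, had 53.5 ± 3.15 TPM. Dhdds, of dolichol synthesis, had 46.7 ± 5.59 TPM and Pggt1b was lowest at 13.6 ± 0.311 TPM, with 0 TPM on transcripts annotated as protein-coding. All 8 genes of these branches were below Fdps in mean level.

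Reads could be shared for some of the 31. In 9 genes (Acat2, Idi1, Fdps, Fdft1, Lss, Tm7sf2, Srebf1, Scap and Npc1) the deposited posterior SD of the count was above 0, at most 24.8 counts, which marks reads that also fit another feature, and in the other 22 it was 0. By GENCODE M21, 1124 exonic bases of Fdps (26.7%) also belong to Gm43738 on the same strand, for which no value was read in the deposited tables, and 985 of Scap to 5830462I19Rik on the opposite strand. Likewise, 774 exonic bases of Fdft1 also belong to Ctsb on the opposite strand, and 532 exonic bases of Tm7sf2 to Vps51 on the same strand. Whether counting used strand is not given in the sources used here, so reads from those bases cannot be placed with certainty. Expected counts on genes totalled 31211128 in replicate 1 and 26957198 in replicate 2. The 31 genes had 319 to 22804 counts a library, so none of their count totals rested on few reads. Parts of some TPM levels did. Npc1-203 held 25.3% of the Npc1 TPM in replicate 1 and 25.4% in replicate 2, on 26.6 and 20.25 expected counts. Lss-205 held 20.2% of the Lss TPM in replicate 1 and 18.4% in replicate 2, on 52.4 and 34.0.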

How the data were processed

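Total RNA-seq of 2 pools of E16.5 forebrain was analysed from 1 gene and 1 transcript table per library. Alignment to mm10 and quantification on GENCODE M4 transcripts are stated per the notes deposited by the authors. The aligner was not given in the sources used here, nor was the quantification program. The authors deposited expected counts (estimated counts, not normalized) per gene and transcript, per the file headers. TPM values were scaled by the authors over all listed features, spike-ins included, per the file headers, so spike-ins (5.93% of TPM in replicate 1 and 4.10% in replicate 2) lower all other values. The percent of a gene's TPM held by each transcript was deposited by the authors, per the file headers.

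GENCODE M21 (GRCm38, the assembly of mm10) gave gene symbols, transcript types and coordinates, and RefSeq (GRCm38.p6) the promoter windows. Levels are the mean and SD of TPM. Expected counts were rounded and scaled by TMM factors of edgeR 4.0.16 in R 4.3.3. The log2 ratio of replicate 1 over replicate 2 used a prior count of 0.5, a minimum mean count of 50 and a 95% exact Clopper-Pearson interval. The check on simulated counts held counting error only, so it does not bear on the wider spread between these libraries. PCR reads without molecular identifiers are not independent molecules, so intervals cover counting error only. Pairs of genes were compared within a library as log2(TPM + 0.1) and called different where both signs agreed and the mean exceeded 3 SD. Python 3.11.15 with numpy 2.4.6, pandas 2.3.3, scipy 1.17.1 and matplotlib 3.10.9 did the rest.

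All 31 genes are named, with the 2 highest and the lowest of each other list; Nr1h3, Stard3, Stard4 and Clu come from the gene pairs, and Ctsb, Vps51, Gm43738 and 5830462I19Rik from the overlaps. The genes and lists were chosen with earlier results of these data known. Alternatives were posterior means, other TPM scalings and minimums, DESeq2 1.42.0 size factors, total counts, spike-in totals, other priors, pseudocounts and count minimums, each replicate left out and, chosen after seeing the data, TPM of protein-coding transcripts.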

Additional observations from a re-analysis of the deposited data

How the results depend on the processing

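The series holds 1 group of 2 libraries, so differences between them have no replicate check, and depth was not the limit for the count totals of these genes. No paired analysis was possible because the series holds 1 group. The median level of the synthesis genes was 79.7 TPM when rescaled over protein-coding genes. That of the sensing genes was 43.7 TPM from posterior means, 41.2 TPM without spike-ins and tRNA features and 46.3 TPM over protein-coding genes, and that of the handling genes 22.1, 23.8 and 26.8 TPM in the same order and 19.7 TPM on coding transcripts. With 1 replicate left out these medians ranged over 63.9 to 70.9, 38.3 to 40.0 and 22.6 to 22.7 TPM. Spike-in totals, which shift all genes by -0.55, put 12 genes past 1.5-fold, with no share of all genes to set beside them. These totals gave median log2 ratios of -0.53 (synthesis), -0.59 (sensing) and -0.65 (handling). Under them Pmvk had -0.17, Mvd -0.33, Fdps -0.35, Tm7sf2 -0.23, Dhcr7 -0.35 and Npc1 -0.39. Total counts gave the synthesis genes a median of 0.046. On coding transcripts the log2 TPM ratio of Lrp1 over Lrp8 was -0.11. On them Sc5d and Dhcr7 (0.76) and Abcg4 and Abcg1 (-1.18) also differed. Calls were lost for Cyp46a1 under spike-in totals (-0.16) and for Sqle (-0.03) and Soat1 (-0.12) under total counts, and gained for Hmgcs1 (0.04) and Mvk (0.14) under total counts and Srebf2 (-0.04) under DESeq2 size factors. The causes were not tested.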
